A study of Mus musculus with 44 samples.

Results

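The heat shock proteins and chaperonins described here are the molecular chaperones whose gene symbols begin with Dnaja, Dnajb, Dnajc, Hspa, Hspb, Hspd, Hspe, Hsph, Hsp90 or Cct, together with Tcp1 and the transcription factors Hsf1 and Hsf2. The choice was made by symbol alone, plus a floor of at least 1 CPM (a gene's share of a library's reads, scaled so that each library sums to 1000000) in at least 5 of the 44 libraries. Of 80 symbols that matched, 73 passed the floor, out of 14699 genes listed and 11963 genes that passed the same floor. Dnajb7, Dnajc6, Hspa12b, Hspb2, Hspb7, Hspb8 and Hspb9 did not pass. The 73 members were 25 DNAJC, 11 DNAJB and 4 DNAJA proteins, 9 HSP70s, 3 HSP110s, 3 HSP90s and 8 subunits of the cytosolic chaperonin CCT/TRiC. The rest were both subunits of the mitochondrial chaperonin, both HSFs, 3 genes with Hspb symbols and 3 genes taken in by their names (Hspbp1, Hspbap1 and Hspa12a). The Hspb genes were Hspb1, Hspb6 and Hspb11, the last placed there by its symbol alone.

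RNA was sequenced from CD45+CD11c+MHCII high cells, a gate that takes in dendritic cells (DCs), sorted from the draining inguinal lymph nodes of mice 24 h after a subcutaneous injection. The injection was given at Zeitgeber time (ZT) 3, 9, 15 or 21, where ZT counts hours from lights on in a cycle of 12 h light and 12 h dark. The study asked whether the time of day of tumour engraftment shapes the DC response, and whether this needs the clock gene Bmal1 (Arntl) in DCs.

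WT mice received B16-F10-OVA melanoma cells, a mouse melanoma line that carries the model antigen ovalbumin (5 mice at each ZT, 20 in all). Mice of the KO group, Clec9a-cre:Bmal1flox, received the same cells (3 at each ZT, 12 in all). Their Bmal1 alleles are flanked by loxP sites, and the Cre is driven from Clec9a, which is active in DC precursors, so that other cells keep the gene. PBS mice were of the WT genotype and received a sham injection of phosphate-buffered saline (3 at each ZT, 12 in all). Mice were females of 8 to 12 weeks. No group was left without an injection, and no PBS group exists for the KO genotype.

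Chaperones bind unfolded proteins and help them to fold, assemble, move across membranes or be degraded. HSP70s work in cycles of ATP hydrolysis that J-domain proteins (the DNAJ families) start and that nucleotide exchange factors such as the HSP110s close. HSP90s act later, on kinases and receptors, and the ring-shaped CCT/TRiC folds actin and tubulin. HSF1 is the main activator of the heat shock response: it binds heat shock elements, arrays of inverted nGAAn units, in the promoters of inducible chaperones. A separate set in the endoplasmic reticulum (ER) is controlled by the unfolded protein response through ER stress response elements. In the liver, HSF1 and its targets are known to follow daily rhythms in body temperature and feeding.

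Elements of both kinds stand in the promoters of some of the members described below. The stretches were taken from RefSeq promoter windows on GRCm38.p6 that run from 250 bases before to 50 bases after each annotated start, which were found for 59 of the 73 members. The 14 without a window include Hspa8, Hsp90aa1, Hsp90ab1, Hsf1 and Hspa9. The first stretches are from the twin genes Hspa1a and Hspa1b and from Hspe1 and Hsph1. Capitals mark heat shock elements, read as alternating GAA and TTC units whose starts leave 2 bases between neighbouring units. All stretches are printed 5′ to 3′ on the strand of the gene.
Hspa1a, chr17:34972227-34972286, minus strand: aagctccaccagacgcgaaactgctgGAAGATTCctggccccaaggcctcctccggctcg
Hspa1b, chr17:34959309-34959368, minus strand: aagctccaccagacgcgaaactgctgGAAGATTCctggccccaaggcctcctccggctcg
Hspe1, chr1:55088053-55088082, plus strand: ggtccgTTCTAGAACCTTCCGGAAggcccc
Hsph1, chr5:149636287-149636316, minus strand: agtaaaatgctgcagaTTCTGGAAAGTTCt

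The match in Hspa1a and Hspa1b had 2 units and lay 104 bases before each start. The whole windows of these twins were identical at 296 of 300 bases, so the same stretch stands at both genes. The Hspe1 match lay 89 bases before its start, inside the annotated span of Hspd1 (chr1:55077835-55088243, minus strand). Hspd1 and Hspe1 are read in opposite directions from this shared region. The Hsph1 match lay 36 bases after the start. An array of 3 units, searched on both strands, was found in the windows of 4 of 59 members (Dnajb6, Hspd1, Hspe1 and Hsph1; 6.78%) and of 0.662% of all 27025 symbols with a window. At 2 units, which the arrays of 3 also hold, the shares were 27.1% of members and 17% of all symbols, and 8 of the 10 heat-inducible members with a window had one, all but Dnajb1 and Hspa4l. Matches are a description of letters in the window and were not tested as binding sites.

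The second set of stretches is from the ER chaperones Hspa5, Hsp90b1 and Dnajc3. Capitals mark the ER stress response element, CCAAT and CCACG with 9 bases between them, on either strand.
Hspa5, chr2:34772005-34772064, plus strand: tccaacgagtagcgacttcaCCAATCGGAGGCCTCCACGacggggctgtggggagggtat
Hsp90b1, chr10:86705512-86705571, minus strand: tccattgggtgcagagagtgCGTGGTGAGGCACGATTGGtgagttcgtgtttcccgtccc
Dnajc3, chr14:118937807-118937866, plus strand: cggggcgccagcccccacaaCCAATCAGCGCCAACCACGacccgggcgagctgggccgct

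These matches lay 65 bases before the Hspa5 start, 107 before that of Hsp90b1 (on the other strand, the nearer of its matches) and 105 before that of Dnajc3. The element was present in 3 of 59 members, all of them ER chaperones, and in 0.137% of all symbols with a window. The E-box CACGTG, which BMAL1 and other factors can bind, was present in 13.6% of members and 8.09% of all symbols. The 8 members were Dnajb9, Dnajc1, Dnajc16, Dnajc8, Hsf2, Hspbap1, Hspd1 and Hsph1.

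The libraries differed in ways that bear on comparisons between groups. Estimated from the smallest step between values, depth ran from 20088012 to 28962671 reads in WT, 29406729 to 55799163 in KO and 28003328 to 49590055 in PBS. The WT and KO ranges did not overlap, so that group and depth, or any difference in handling that goes with it, cannot be told apart. Those of WT and PBS overlapped only from 28003328 to 28962671 reads, with medians of 23707306 and 37898704, so the same limit largely holds there. Arntl itself averaged 14.8 CPM in WT, 19.9 in libraries labelled KO and 21.7 in PBS, so it was not lower in the libraries labelled KO. A value over the whole gene does not check a deleted exon. The 8 migratory DC genes, Ccr7 among them, were all listed and summed to 19644 to 28076 CPM in WT, 20787 to 26782 in KO and 16359 to 26382 in PBS. All samples are separate libraries of 1 group, but which mice shared an experiment is not given, so p-values measure only the spread between these libraries.

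The most abundant members in these cells were 2 constitutive cytosolic chaperones. Hspa8, the constitutive HSP70 that also takes part in clathrin uncoating and chaperone-mediated autophagy (chr9:40800984-40810087, plus strand), averaged 2007 CPM over the 44 libraries. Hsp90ab1, the constitutive HSP90 (chr17:45567775-45573271, minus strand), averaged 1290 CPM. Per kilobase of annotated exon, the scale on which levels of different genes can be compared, Hspa8 stood at 467 CPM per kb and Hsp90ab1 at 430.2. They were followed by Hspa5, the ER HSP70 known as BiP, at 115, Dnajc8 at 95.3, Cct5 at 91.3, Dnaja2 at 79.1 and Hsp90aa1 and Hsp90b1 at 75.7 each. These are means over all libraries, and the place of Hspa5 rests on KO and PBS, where it averaged 621 and 566 CPM, against 358 CPM in WT. The lowest were Hspa12a at 0.0707, the testis-associated Hspa1l at 0.206 and Dnajb13, a protein of the ciliary axoneme, at 0.626 CPM per kb. Within a group and ZT, the median SD of the members on the log2 scale was 0.201 in WT, 0.221 in KO and 0.207 in PBS. Over all genes tested it was 0.309, 0.352 and 0.313. The genes were not matched for level, and in WT the low members Hspa12a and Hspa1l had SDs of 0.611 and 0.772. Dnajb6 was the steadiest member in WT (SD 0.0666), and Hspa1b (0.834) and Hspa1a (0.768) were the most variable.

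The differences with time described first are those of the heat-inducible members. The list used for them was chosen with earlier results of these data known. Its counts beside those of all genes are therefore a description of these data and no independent support. A list of 13 members known as targets of HSF1 (Hspa1a, Hspa1b, Hspa8, Hsph1, Hspa4l, Hsp90aa1, Hsp90ab1, Dnaja1, Dnajb1, Dnajb4, Hspb1, Hspd1 and Hspe1) summed to 3344 ± 82.4 CPM in WT mice injected at ZT9 (SD, n = 5). The sum was 4583 ± 409 at ZT3, 5362 ± 246 at ZT15 and 4581 ± 195 at ZT21. The highest WT library at ZT9 (3430 CPM) lay below the lowest at any other ZT (4224 CPM). In KO the sum was 3427 ± 66.8 CPM at ZT9 and 5244 ± 368 at ZT15, and in PBS 3689 ± 73.9 and 5502 ± 281 (n = 3 each). The sum rests mostly on the abundant Hspa8 and Hsp90ab1, which averaged 1573 and 1003 CPM in WT at ZT9 and are also expressed without stress. Libraries at ZT15 lay above those at ZT9 in every condition, without overlap, the sham-injected mice included.

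**Figure D1:**
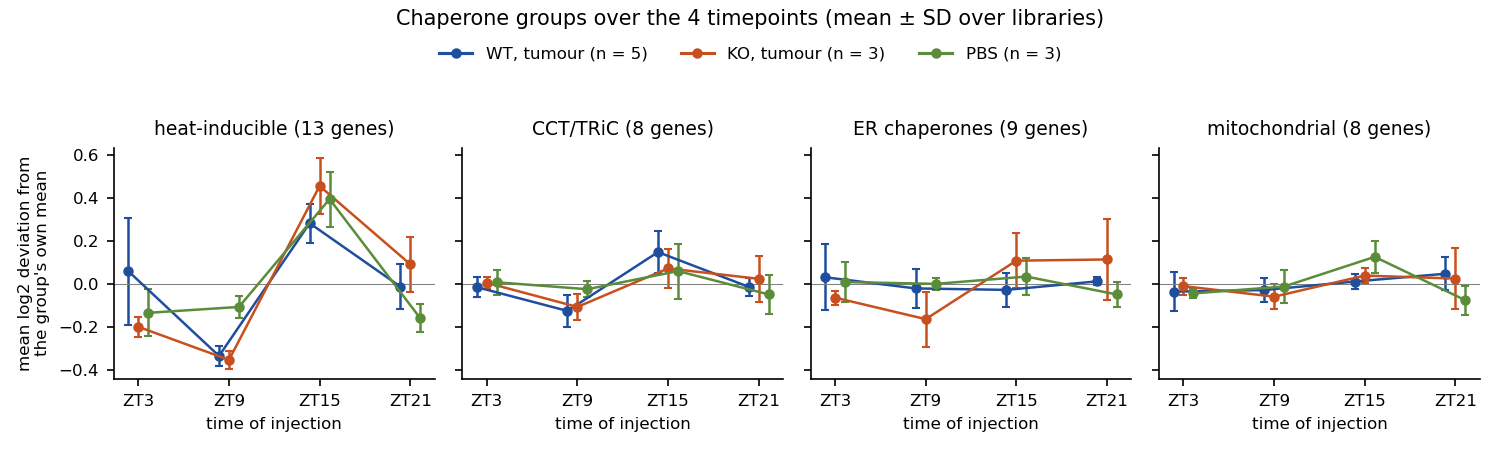
Mean log2 deviation (vertical axis, log2 CPM) of 4 chaperone groups from each condition's own mean, against the ZT of injection in hours (horizontal axis), with error bars of ± SD over libraries (WT n = 5, KO n = 3 and PBS n = 3 at each ZT). The 13 heat-inducible targets sit lowest at ZT9 in WT (-0.33) and KO (-0.35) and highest at ZT15 in all 3 conditions (0.28, 0.46 and 0.40), while the ER and mitochondrial groups move less in WT.

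Counted gene by gene, the highest of the 4 means was at ZT15 for 9 of 13 heat-inducible targets in WT, 9 in KO and 12 in PBS. Over all 11963 genes, ZT15 had the highest mean for 2328 genes in WT, 3962 in KO and 3480 in PBS. The lowest mean was at ZT9 for 10 of the 13 in WT and 9 in KO, and for 4 in PBS, beside 2421, 4575 and 2440 of all genes. The median ratio of the ZT15 mean to the ZT9 mean was 1.56 in WT, 1.51 in KO and 1.51 in PBS for the 13 targets, beside 0.913, 1.11 and 0.974 over all genes. Over all 73 members it was 0.942, 1.19 and 1.06, so the ratio of the median member in WT was below 1. The pair of ZT15 and ZT9 was chosen after the values were seen, so these figures are a description with no test.

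In WT, 8 of the 13 targets had every ZT15 library above every ZT9 library, and over all members 14 of 73 did. The same held for 2.99% of all genes in WT. In KO it held for 10 of the 13 targets, 24 of 73 members and 16.3% of all genes. In PBS it held for 7 of the 13 targets, 11 of 73 members and 6.78% of all genes. Dnaja1, Hsp90aa1, Hsp90ab1 and Hspa8 were among those members in WT and also in PBS.

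Hspa8 read 1528, 1596, 1546, 1534 and 1659 CPM in the 5 WT libraries at ZT9. At ZT15 the libraries read 2645, 2144, 2643, 2759 and 2578 CPM. All values at ZT3 (1854 to 2253 CPM) and ZT21 (1891 to 2211 CPM) also lay above the ZT9 values. In KO, Hspa8 read 1639, 1664 and 1527 CPM at ZT9 and 2725, 2351 and 2376 at ZT15. In PBS it read 1677, 1639.8 and 1603 CPM at ZT9 and 2455, 2167 and 2631 at ZT15. The ZT15 mean was 1.62, 1.54 and 1.47 times the ZT9 mean in WT, KO and PBS.

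Hsp90ab1 also had its trough at ZT9, and in WT and KO its level was still high at ZT21. The WT libraries read 1103, 988, 998, 948 and 979 CPM at ZT9. At ZT15 they read 1585, 1610.4, 1339.7, 1416 and 1606 CPM, and at ZT21 1453, 1482, 1422, 1573 and 1550.2 CPM. No ZT9 library reached the lowest library of another ZT, which was 1238 CPM at ZT3. KO libraries read 1002, 886 and 924 CPM at ZT9, 1309, 1259 and 1155 at ZT15 and 1217, 1216 and 1329.6 at ZT21. PBS libraries read 1036, 1152 and 1172 CPM at ZT9, 1732, 1646 and 1698 at ZT15 and 1361, 1327 and 1148 at ZT21, so in PBS the high values were confined to ZT15 among the 4 ZTs. Its inducible paralogue Hsp90aa1 (chr12:110690605-110702728, minus strand) read 221, 201, 192, 185 and 170.2 CPM in WT at ZT9 and 391, 443, 316, 374 and 411 at ZT15. In PBS Hsp90aa1 read 229.8, 261 and 266 CPM at ZT9 and 458, 461 and 415 at ZT15.

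Among the J-domain partners of the cytosolic HSP70s, Dnaja1 and Dnajb1 had every ZT15 library above every ZT9 library in both groups of tumour-injected mice. The ratio of means was 1.23 in WT, 1.25 in KO and 0.783 in PBS for Dnajb4, with libraries that overlapped. It was 1.24, 1.17 and 1.17 for Dnaja4, also with overlap. For Dnaja2 it was 0.870, 0.919 and 0.903, and for Dnajb6 0.946, 0.991 and 0.987. Dnaja1 (chr4:40722150-40737149, plus strand) read 159.7 to 187 CPM in WT at ZT9 and 244 to 316 at ZT15. It read 247, 286 and 259 CPM in KO at ZT9 and 450.2, 385 and 361 at ZT15, and 236, 284 and 242 CPM in PBS at ZT9 and 378, 399 and 358 at ZT15. Dnajb1, which stimulates HSP70 and also restrains HSF1 (chr8:83608193-83612653, plus strand), read 62.3 to 71.3 CPM in WT at ZT9 and 109 to 119 at ZT15. In PBS its libraries overlapped, with 102, 92.8 and 88.0 CPM at ZT9 and 116, 85.5 and 107 at ZT15.

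Hsph1, an HSP110 that exchanges nucleotide on HSP70 (chr5:149614287-149636376, minus strand), had the largest ratio of ZT15 to ZT9 among the 13 targets in WT, though not in KO or PBS. Its WT libraries read 19.4, 32.3, 20.9, 28.0 and 12.4 CPM at ZT9 and 53.2, 33.6, 64.9, 62.6 and 60.1 at ZT15. Replicate 2 was both the highest at ZT9 and the lowest at ZT15. The ratio of means was 2.43 in WT, 2.21 in KO and 1.67 in PBS, where the ZT15 libraries (62.6, 30.7 and 60.6 CPM) overlapped those at ZT9 (34.6, 40.6 and 16.7 CPM).

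The mitochondrial chaperonin subunits were also lowest at ZT9 in WT. Hspd1, the folding chamber, read 84.2 to 93.6 CPM in WT at ZT9, 107 to 140.5 at ZT15 and 99.6 to 119 at ZT21. Hspe1, its lid, read 50.0 to 65.7 CPM in WT at ZT9, 71.2 to 115 at ZT15 and 74.4 to 99.7 at ZT21. In KO, Hspd1 stood at 110.0, 88.3 and 101 CPM at ZT9 and at 194, 157 and 152 at ZT21. Hspe1 in KO read 62.0, 86.8 and 66.6 CPM at ZT9 and 49.0, 74.3 and 120.5 at ZT21, with overlap (adjusted p over the 4 ZTs = 0.940 in limma). Their annotated spans overlap and the library kit does not mark strand, so reads in the overlap cannot be given to one of them with certainty.

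**Figure D2:**
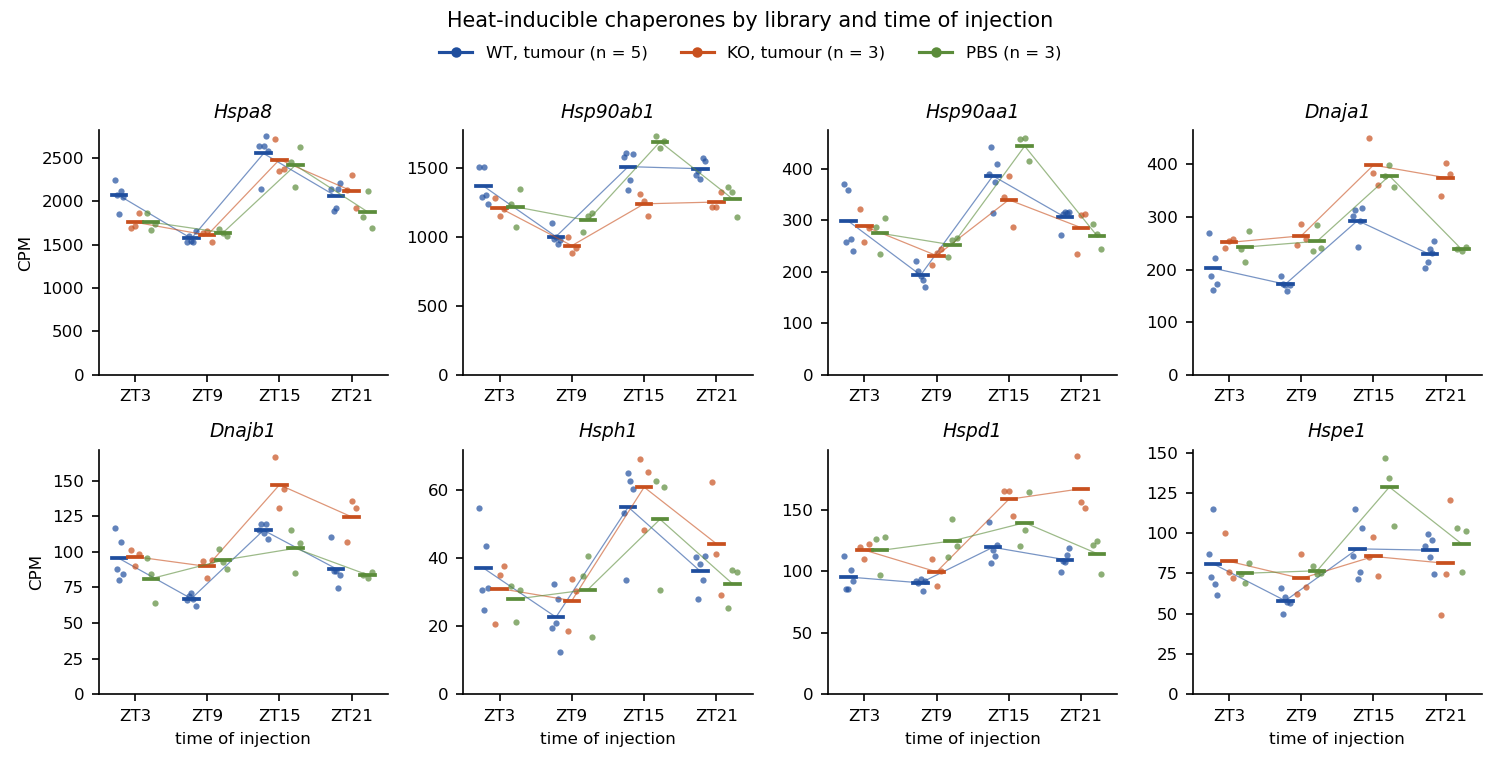
CPM (vertical axis, 1 panel per gene) of Hspa8, Hsp90ab1, Hsp90aa1, Dnaja1, Dnajb1, Hsph1, Hspd1 and Hspe1 against the ZT of injection in hours. Points are libraries (WT n = 5, KO n = 3, PBS n = 3 per ZT), short bars are means and thin lines join the means, and in WT the 5 points of Hspa8 at ZT9 (1528 to 1659 CPM) lie below all others of that condition.

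The genes of the classical inducible HSP70, Hspa1a and Hspa1b, were highest at ZT15 in KO and PBS but scattered in WT. In KO, Hspa1a read 31.6, 20.3 and 36.4 CPM at ZT9 and 134, 179 and 130.5 at ZT15, and the ZT15 mean was 5.02 times that at ZT9. Hspa1b read 28.8, 20.7 and 32.8 CPM in KO at ZT9 and 119, 175 and 101 at ZT15, a ratio of 4.80. In WT the libraries of a single ZT were spread widely, and Hspa1a at ZT3 read 54.2, 128, 39.3, 406 and 111 CPM. Replicate 4 at ZT3 also had the highest Hspa1b value, 435 CPM, beside 26.3 to 108 in the other 4. In PBS, Hspa1a was lower, with 70.3, 49.9 and 49.6 CPM at ZT15 and 15.4 to 42.3 at the other ZTs. The deposited values of both genes correspond to fractions of a read in nearly every library (95.5% for Hspa1a and 97.7% for Hspa1b), and reads from twins this alike cannot be assigned with certainty, so the 2 genes are best read as 1.

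The means of Hsf1 and Hsf2, the transcription factors, were lower at ZT15 than at ZT9 in WT, the more common direction there. Over all genes in WT, 8.67% had every ZT15 library below every ZT9 library, and 2.99% had every one above. The lowest mean was at ZT15 for 4824 of 11963 genes. In the limma F test over the ZTs in WT, Hsf2 passed adjustment (adjusted p = 0.00804) and Hsf1 did not (adjusted p = 0.369). Hsf1 read 19.2 to 21.6 CPM at ZT15 in WT and 21.9 to 28.2 at ZT9. In KO Hsf1 read 22.9, 18.5 and 33.6 CPM at ZT9, 36.6, 28.2 and 37.0 at ZT15 and 60.8, 34.2 and 39.5 at ZT21. Hsf2 (chr10:57486385-57513135, plus strand), which can form mixed trimers with HSF1, ran opposite to the heat-inducible targets in WT. Its 5 libraries lay between 22.2 and 28.5 CPM at ZT9 and read 11.4, 16.0, 10.6, 11.1 and 11.2 at ZT15, with no overlap. At ZT21 it was high again, from 18.6 to 33.5 CPM. In KO Hsf2 was low at most ZTs, with 11.6, 7.92 and 15.8 CPM at ZT9, 5.39, 10.5 and 11.9 at ZT15 and its highest values, 14.4 to 17.7, at ZT3.

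**Figure D3:**
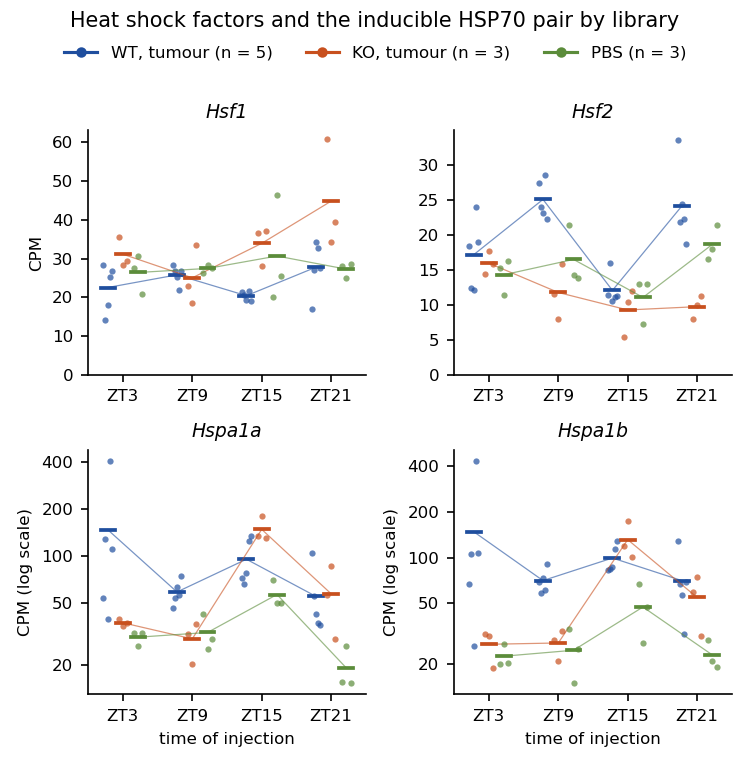
CPM of Hsf1, Hsf2, Hspa1a and Hspa1b against the ZT of injection in hours. The axes of Hspa1a and Hspa1b are logarithmic, points are libraries (WT n = 5, KO n = 3, PBS n = 3 per ZT), short bars are means joined by thin lines, and 1 WT library at ZT3 stands far above the rest in both twins (406 and 435 CPM).

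A cosine of 24 h was fitted to log2(CPM + 0.5) in each condition with limma, whose F test has unadjusted and Benjamini-Hochberg adjusted p-values over all 11963 genes. In WT, 10 of 73 members had an unadjusted p under 0.05, beside 9.20% of all genes, and none passed adjustment, which 3 genes of the whole table did. All 10 peaked after ZT12, between 17.4 and 20.1 h, where 4.07% of all genes fell. They were Hsp90ab1 (amplitude 0.30 on the log2 scale, peak at 20.1 h, adjusted p = 0.114), Dnaja1, Hspd1, Hsp90aa1, Hspe1, Cct8, Hspa8, Cct5, Hsph1 and Dnajb1. Of the 10, 8 are heat-inducible targets and the others are CCT/TRiC subunits. Dnajb1 and Hsph1 had the 2 largest p of the 10, and both lost that level when single libraries were left out. The median amplitude was 0.239 for the heat-inducible targets, 0.112 for the members and 0.143 for all genes.

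In KO, 15 of 73 members had an unadjusted p under 0.05, beside 10.5% of all genes, and all of the 15 peaked after ZT12, where 8.60% of all genes fell. They included 9 heat-inducible targets, with Dnaja1 (amplitude 0.41, peak at 17.5 h), Hspd1 (0.43, 19.0 h) and Hspa1b (1.22, 16.5 h) first, each with an adjusted p = 0.232 in limma. Hspa5 (0.30, adjusted p = 0.381) and Hsf1 (0.42, adjusted p = 0.409) were also among them, and in WT these had adjusted p = 0.936 and adjusted p = 0.950. The KO call of Hsf1 was lost in 5 of 21 settings, among them those without KO ZT9 replicate 1, KO ZT9 replicate 2 or KO ZT21 replicate 1, and that of Hspa5 under median-of-ratios scaling. For Hsf1 the difference between KO and WT in its course over time did not pass in the interaction test (adjusted p = 0.308). In PBS, 8 members had a p under 0.05, beside 7.38% of all genes, and this count fell to 1 without PBS ZT15 replicate 2. Of these, 6 peaked after ZT12 (2.42% of all genes), and they were the heat-inducible targets Hspe1, Dnaja1, Hsp90aa1, Hspa8, Hsp90ab1 and Hspa1a, with peaks from 12.3 to 16.5 h. Dnajc12 (peak at 3.48 h) and Hspb6 (10.6 h) made up the 8. None of the KO or PBS members passed adjustment in limma.

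**Figure D4:**
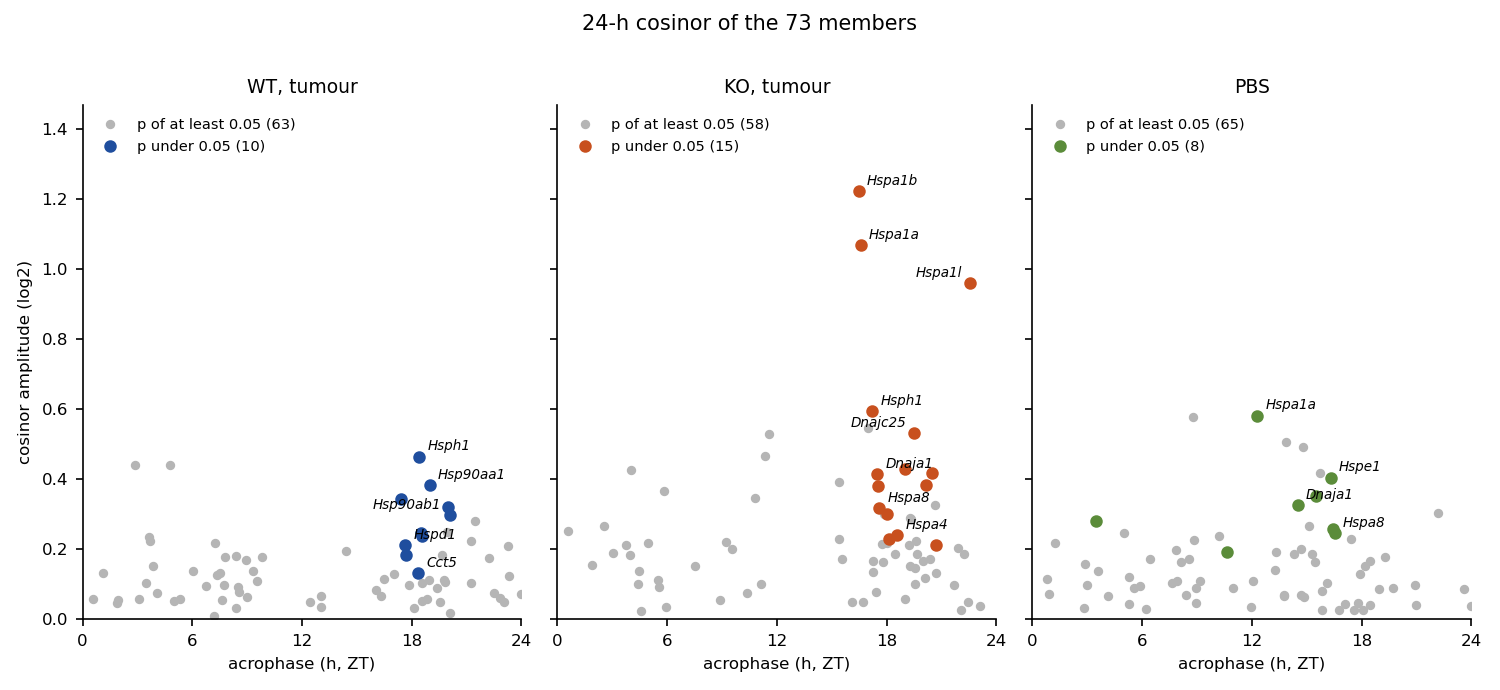
Amplitude (vertical axis, log2 CPM) against peak time (horizontal axis, hours of ZT) of the 24 h cosine for each of the 73 members, 1 panel per condition, with members of unadjusted p under 0.05 in colour, some of them named. In WT the 10 coloured members sit between 17.4 and 20.1 h, in KO 15 sit after 12 h, and in PBS 6 of 8 do.

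An F test over the 4 ZTs, which asks for no cosine shape, called more members in WT. There 24 members had an unadjusted p under 0.05, beside 23.1% of all genes, and 14 passed adjustment, beside 5.28%. Hspa8 came first (adjusted p = 0.00245), followed by Hsp90aa1 and Hsp90ab1 (adjusted p = 0.00271 for both), Dnajb1 (0.00574), Hsf2 (0.00804) and Dnaja1 (0.00853). The others were Dnajc2, Dnajc1, Hsph1, Dnajc21, Cct7, Dnajc4, Hspd1 and Cct8, and Hspbp1 (0.0538) and Hspe1 (0.0539) lay just outside in limma. In KO, 12 members had an unadjusted p under 0.05 (10.3% of all genes), and in PBS 7 (7.44%), with none past adjustment in either.

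Of the 14 members that passed adjustment, Hsf2, Dnajc1, Dnajc2, Dnajc4 and Dnajc21 had lower means at ZT15 than at ZT9 in WT, and the other 9 had higher ones. Dnajc4 averaged 26.0 CPM at ZT9 and 20.7 at ZT15 (adjusted p over the 4 ZTs = 0.0416 in limma). Dnajc2, which binds the ribosome and assists new chains, read 76.8 to 84.6 CPM at ZT9 and 50.6 to 73.6 at ZT15 (adjusted p over the 4 ZTs = 0.0193 in limma). Dnajc1, of the ER membrane, read 114 to 149 CPM at ZT9 and 82.4 to 94.9 at ZT15 (adjusted p = 0.0219). Dnajc21, which acts in ribosome maturation, was highest at ZT21, with 26.6 to 43.2 CPM against 18.3 to 27.6 at ZT15 (adjusted p = 0.0277). The other J proteins of the ER varied in WT, with a ratio of the ZT15 mean to the ZT9 mean of 0.765 for Dnajc10, 0.921 for Dnajb11, 1.04 for Dnajc3 and 1.39 for Dnajc25. Dnajb9 read 84.0 to 101 CPM at ZT9 and 117 to 140.3 at ZT15. In PBS Dnajc1 was highest at ZT15, with 143, 132 and 128 CPM, and at ZT9 it read 99.9, 113 and 128.5.

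CCT/TRiC subunits followed the heat-inducible course in WT, with smaller differences. The 8 subunits summed to 1470 ± 77.1 CPM at ZT9 and 1777 ± 112 at ZT15 in WT (SD, n = 5), and the ranges, 1394 to 1587 and 1578 to 1845 CPM, touched through replicate 2 at both ZTs. The mean was highest at ZT15 for 7 of the 8 subunits in WT and for 5 in KO and PBS, beside 2328, 3962 and 3480 of all 11963 genes. Cct8 read 158 to 195 CPM in WT at ZT9 and 199 to 253 at ZT15, and Cct7 185 to 208 and 216 to 271. The median ratio of ZT15 to ZT9 over the subunits was 1.25 in WT, 1.22 in KO and 1.05 in PBS.

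Lists of other cells and of handling moved with the same ZTs, and their part in these results was not tested. Of 18 T cell genes, 16 were listed, none at 0 in all libraries, and their sum in WT was 579 CPM at ZT9 (467 to 684), 724 at ZT3, 739 at ZT15 and 786 at ZT21. The T cell sum was 636 CPM at ZT9 and 859 at ZT15 in KO, and 881 and 1065 in PBS. The lymph nodes were digested for 15 min at body temperature before sorting, so the levels of all members were read after that step. Its part in the levels of the heat-inducible targets was not tested. The 19 immediate-early genes, which tissue digestion is known to induce, were all listed and summed in WT to 7247 CPM at ZT9 (6291 to 8551) and 10216.5 at ZT15 (7650 to 11278). The immediate-early sum was 12020 CPM at ZT9 and 14437 at ZT15 in KO. In PBS it was 15366 CPM at ZT9 and 14417 at ZT15, while the heat-inducible sum was higher at ZT15. The 5 cDC1 genes summed to 23.7 CPM at ZT9 and 40.5 at ZT15 in WT, 28.5 and 67.0 in KO and 102 and 92.4 in PBS. The 5 cDC2 genes summed to 178 CPM at ZT9 and 224 at ZT15 in WT, 171 and 359 in KO and 288 and 241 in PBS. The 5 NK cell genes summed to 5.93 CPM at ZT9 and 14.4 at ZT15 in WT, 30.2 and 38.4 in KO and 88.4 and 164 in PBS. The 8 migratory DC genes went down, from 24509 CPM at ZT9 to 22848 at ZT15 in WT, from 25629 to 22609 in KO and from 23087 to 18622 in PBS. A list of 7 other DC genes, Cd74 among them, went up in WT without overlap, from 14171 CPM at ZT9 (at most 15965) to 20096.5 at ZT15 (at least 16825.5). Its sum was 17725.5 and 19003.5 CPM in KO and 19965.5 and 18905 in PBS. In bulk samples such as these, fewer cells of a type and less RNA per cell cannot be told apart.

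The contrast of ZT9 with ZT21, 2 times at opposite points of the day, gave 2 adjusted calls among the members in WT. There 15 of 73 members had an unadjusted p under 0.05, beside 11.5% of all genes, and 13 of the 15 were lower at ZT9, beside 5.02%. These 2 stood beside 0.226% of all genes (27 genes). Hsp90ab1 was lower at ZT9 by a log2 difference of -0.58 (SE 0.086, adjusted p = 0.0133) and Hsp90aa1 by -0.66 (SE 0.13, adjusted p = 0.0341). Hspa8 (-0.39, adjusted p = 0.0664) and Hspe1 (-0.62, adjusted p = 0.130) did not pass. The members higher at ZT9 were Dnajc10 (0.39) and Hspa4 (0.36), both by unadjusted p. The Dnajc10 call was lost without WT ZT9 replicate 2, WT ZT9 replicate 3 or WT ZT21 replicate 2.

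In KO, 18 members had an unadjusted p under 0.05, all lower at ZT9, beside 10.9% of all genes, of which most (8.89% of all genes) were lower. The median log2 difference over all genes was itself -0.12 in KO, and it moved to -0.00118 with median-of-ratios scaling, under which 8 members were called. Hspd1 (-0.74, adjusted p = 0.202) had the smallest p in limma, and none passed adjustment. In PBS only 3 members were called, beside 5.32% of all genes, and all were higher at ZT9: Hspa1a (0.75), Hspb6 (0.35) and Dnajc16 (1.15). The median over the 13 heat-inducible targets was -0.38 in WT, -0.47 in KO and 0.04 in PBS, beside 0.04, -0.12 and 0.03 over all genes. Over the 19 immediate-early genes it was -0.08 in WT, -0.36 in KO and 0.45 in PBS, where all 19 were higher at ZT9. Over the 16 T cell genes it was -0.58, -0.63 and 0.28, and over the 5 cDC2 genes -1.02, -1.56 and 0.20. The part of these lists in the contrast of ZT9 with ZT21 was not tested.

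Between genotypes, the member with the smallest p was the ER chaperone Hspa5. Averaged over the 4 ZTs and fitted in limma on 32 tumour-injected libraries, KO minus WT passed adjustment at 31 of 73 members, beside 33.7% of all genes. Of these, 23 were higher in KO (23.5% of all genes) and 8 lower (10.2%). Hspa5 read 318 to 415 CPM over the 20 WT libraries and 452 to 781 over the 12 of KO, without overlap (log2 difference 0.78, SE 0.054, adjusted p = 1.7e-11). Dnajb11, which brings substrates to BiP, read 73.9 to 105 CPM in WT and 101 to 151 in KO (0.41, SE 0.055, adjusted p = 2.2e-06). Hsp90b1, the HSP90 of the ER, rose by 0.31 (adjusted p = 0.000774) and Dnajc3 by 0.23 (0.0172, a call lost under median-of-ratios scaling and with replicate numbers as a block in the fit), so 4 of the 9 ER members were higher and none lower.

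In the cytosol and mitochondria, Dnaja1 was higher in KO by 0.53 (SE 0.066, adjusted p = 7e-07), Hspd1 by 0.36 (1.35e-05), Hspa9, the HSP70 of the mitochondrial matrix, by 0.52 (5.09e-05) and Hspa2 by 0.84 (2.38e-05). Hspa2 stood at 9.43 CPM in WT and 17.5 in KO. Hsf1 was higher in KO by 0.45 (adjusted p = 0.00289) and Hsf2 lower, with a difference of -0.71 (SE 0.12, adjusted p = 4.98e-05). Also lower were Hsp90ab1 (-0.20, adjusted p = 0.0014), Hspb11 (-0.41), Dnajb13 (-0.37), Dnajc4 (-0.30), Dnajc5 (-0.27), Cct4 (-0.13) and Hspa1b (-0.79, adjusted p = 0.0184, a call lost under the replicate block). The twin of Hspa1b, Hspa1a, from which its reads cannot be told apart with certainty, was not called. The call of Dnajb13 was lost with an intensity trend in the fit, and that of Cct4 without KO ZT9 replicate 1, KO ZT15 replicate 2 or KO ZT15 replicate 3. The heat-inducible targets were split, with a median of 0.04. The median was 0.09 over the members and 0.10 over all genes, and that over all genes fell to 0.01 with median-of-ratios scaling.

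The comparison of WT with PBS, also averaged over the 4 ZTs, uses the same WT libraries. Most PBS libraries were deeper than those of WT, so injection and depth are hard to tell apart here. It passed adjustment at 36 of 73 members, beside 37.9% of all genes. Of these, 26 were lower in tumour-injected WT (24.6% of all genes) and 10 higher (13.3%). Hspa5 read 501 to 619 CPM in PBS, above all WT libraries (log2 difference -0.66, SE 0.049, adjusted p = 2.8e-11). Dnajb11 (-0.43), Hsp90b1 (-0.36) and Dnajc3 (-0.40) were lower as well, and Dnajb9, an ER J protein that helps degrade misfolded proteins, was higher (0.37, adjusted p = 0.000567). Of the 8 mitochondrial members, 5 were lower in WT and none higher, with Hspa9 (-0.40, adjusted p = 2.07e-05) first. Hspd1 (-0.25), Dnaja1 (-0.32) and Hspa2 (-0.77) were also lower.

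The members that were higher in WT than in PBS were led by the inducible HSP70 twins. Hspa1b had a log2 difference of 1.57 (SE 0.26, adjusted p = 2.0e-05) and Hspa1a of 1.19 (SE 0.23, adjusted p = 0.000162), with mean levels of 97.4 and 89.2 CPM in WT and 29.3 and 34.6 in PBS. The others were Dnajc21 (0.60), Dnajc5 (0.40), Dnajb9 (0.37), Hspa4l (0.38), Hsf2 (0.33), Dnajb2 (0.25), Dnajb14 (0.21) and Cct4 (0.16). The call of Hsf2 was lost without PBS ZT15 replicate 2. Summed over the 5 NK cell genes listed, another type of cell, WT stood at 3.74 to 20.2 CPM, KO at 11.4 to 68.4 and PBS at 35.4 to 338, and the part of such cells in the group differences was not tested. The immediate-early genes had a median log2 difference of 0.94 in KO minus WT (18 of 19 higher in KO) and -0.94 in WT minus PBS (none of 19 higher in WT). They summed to 6291 to 11278 CPM in WT, 10522 to 16234 in KO and 11741 to 18599.5 in PBS. The medians over the cDC2 genes were 1.03 and -1.96, and their sums ran from 134 to 275 CPM in WT, 135 to 524 in KO and 176 to 362 in PBS. The 5 cDC1 genes had medians of 0.31 in KO minus WT (3 of 5 higher in KO) and -1.17 in WT minus PBS (none of 5 higher in WT), with mean sums of 28.0 CPM in WT, 49.2 in KO and 90.1 in PBS. The 3 Langerhans cell genes had medians of 0.68 in KO minus WT (3 of 3 higher in KO) and -0.22 in WT minus PBS, with mean sums of 66.6 CPM in WT, 107 in KO and 76.4 in PBS. Mean sums of the 9 B cell genes were 57.1, 88.5 and 99.8 CPM, and those of the 16 T cell genes 707, 797 and 916 CPM. The part of these lists in the group differences was not tested either.

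**Figure D5:**
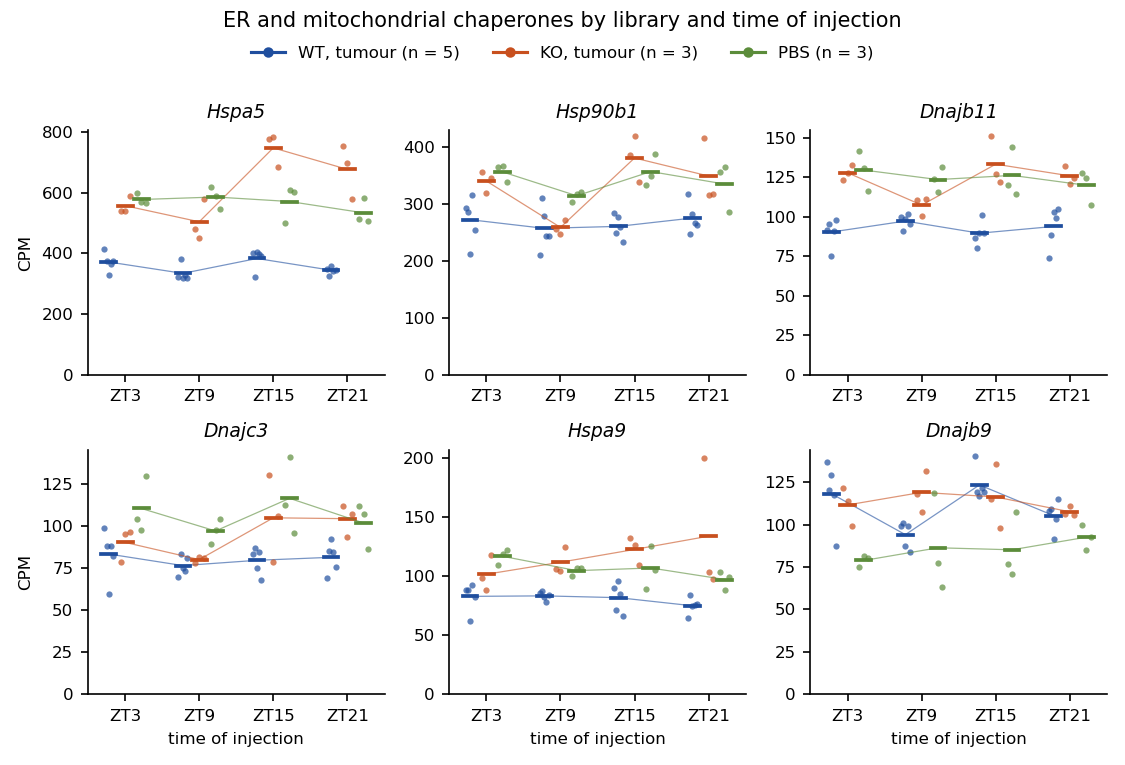
CPM of the ER members Hspa5, Hsp90b1, Dnajb11, Dnajc3 and Dnajb9 and the mitochondrial Hspa9 against the ZT of injection in hours. Points are libraries (WT n = 5, KO n = 3, PBS n = 3 per ZT), short bars are means joined by thin lines, and Hspa5 in WT (318 to 415 CPM) lies below both KO (452 to 781) and PBS (501 to 619).

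KO was compared with PBS after the data were seen, since both differ from WT at many members and their depths overlap. With limma on 24 libraries, 6 of 73 members passed adjustment, beside 9.73% of all genes. Dnajb13 was lower in KO (-0.97, adjusted p = 0.000219), and Hspa1a (0.75), Hspa1b (0.78), Dnajb9 (0.42), Dnajb1 (0.32) and Dnaja1 (0.21, adjusted p = 0.0422) were higher. The Dnaja1 call was lost in 18 of 32 settings, median-of-ratios scaling and the replicate block among them. Hspa5 differed by 0.11 (SE 0.066, adjusted p = 0.270) and Dnajb11 by -0.02 (adjusted p = 0.896). These 2 groups differ in both genotype and injection. The median log2 difference was -1.16 over the 5 cDC1 genes (none of 5 higher in KO), -1.12 over the 5 NK cell genes, -0.92 over the 5 cDC2 genes and -0.14 over the immediate-early genes, and their part was not tested.

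Whether the course over time differed between conditions was tested by an interaction in limma. Between KO and WT, 12 of 73 members had an unadjusted p under 0.05, beside 18.3% of all genes, and none passed adjustment. Which members were called depended on the scaling, since median-of-ratios scaling called 14, of which 5 were among these 12. The first were Dnajb13 (adjusted p = 0.121) and Hsf2 (adjusted p = 0.129), and Hspa1a and Hspa5 (adjusted p = 0.192 for both), Hspa1b and Hspd1 were among the others. Dnajb13 read 0.610, 0.489 and 0.617 CPM in KO at ZT9, below all 5 WT libraries (1.12 to 2.89 CPM). Between WT and PBS, 8 members had an unadjusted p under 0.05, beside 11.9% of all genes, with none past adjustment. Dnajc1 (adjusted p = 0.142), Dnajb1 (adjusted p = 0.178), Hsp90ab1 (adjusted p = 0.247) and Hsp90aa1 (adjusted p = 0.323) were among them. No test here shows that the rise of the heat-inducible targets from ZT9 to ZT15 differed between conditions.

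Among 46 co-chaperones and related genes tested, 8 had an unadjusted cosine p under 0.05 in WT, beside 9.20% of all genes, and all of the 8 peaked after ZT12, beside 4.07%. Ahsa1, the activator of the HSP90 ATPase, came first (amplitude 0.23, peak at 19.4 h, adjusted p = 0.157), followed by St13, Fkbp4, Stip1, Banp, Ahsa2, Chordc1 and Ptges3. Banp encodes a nuclear DNA-binding protein and not a co-chaperone, though it is counted in the list. Some partners of HSP90 and HSP70 in the list, such as Cdc37, Stub1 and Ppid, were not called. Over the 4 ZTs, 5 passed adjustment in limma, beside 5.28% of all genes: Fkbp4 (0.00853), St13 (0.0117), Ahsa1 (0.0241), Stip1 (0.0365) and Ptges3 (0.0422). Stip1, which links HSP70 to HSP90, also had an unadjusted p under 0.05 in KO (peak at 18.4 h, adjusted p = 0.346) and in PBS (14.9 h, adjusted p = 0.663). In KO minus WT 17 of the 46 genes of this list passed adjustment, beside 33.7% of all genes, and 16 of them were higher in KO (34.8%, beside 23.5% of all genes). In WT minus PBS 17 did, beside 37.9%, and 14 of them were lower in WT (30.4%, beside 24.6%).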

How the data were processed

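CPM per gene were deposited by the authors, who aligned 50-base single reads (SMART-Seq v4) with STAR to mm10, counted with HTSeq 0.9.1 and scaled to library size with edgeR. Only 87.9 to 89.6% of values per library came out as whole reads (within 0.02 of a read), so no count test was run. Genes reaching 1 CPM in 5 or more libraries (11963 of 14699) were tested on log2(CPM + 0.5) with limma 3.58.1 (R 4.3.3, Python 3.11.15), with Benjamini-Hochberg adjustment over all of them at 0.05. Fold changes on this scale understate those of low genes. Groups came from the sample labels. A 24 h cosine, the contrast of ZT9 with ZT21, group differences averaged over the 4 ZTs and interactions were fitted. Named genes were those listed by role plus the 5 smallest p in each direction of a comparison. Members and lists were chosen with earlier results of these data known. The fits were tested on simulated data. Gene spans are from GENCODE on GRCm38. Pseudocount, scaling, filter, trend, weights, replicate block and single libraries were varied.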

Additional observations from a re-analysis of the deposited data

Results flagged for a closer look

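Among 204 groups of 5 WT libraries tested, 19 had a highest or lowest library far from the others by Dixon's criterion at 95%, which chance gives in about 1 in 20 groups. WT ZT3 replicate 4 read 406 CPM for Hspa1a (nearest 128) and 435 CPM for Hspa1b (nearest 108), and WT ZT21 replicate 1 read 104 CPM for Hspa1a (nearest 55.6).

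WT ZT15 replicate 2 stood apart in 5 values: Dnajc21 at 27.6 CPM (nearest 19.8), Hsf2 at 16.0 (11.4), Hspa5 at 320.2 (391), Tcp1 at 172 (202) and the summed CCT/TRiC subunits at 1578 (1816). WT ZT9 replicate 2 was high for Cct3 at 154 CPM (nearest 142), Cct4 at 297 (257) and Hspa5 at 379.6 (328).

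The other libraries that stood apart were scattered. At ZT3, Dnaja2 read 172 CPM in replicate 3 (nearest 221), and Dnajc9 read 30.2 (44.1) and Hspa13 24.2 (17.9) in replicate 2. Dnaja2 read 182 CPM in WT ZT9 replicate 1 (nearest 236), and Dnajb9 read 140.3 in WT ZT15 replicate 1 (121). At ZT21, Dnajc5 read 344 CPM (nearest 299) and Dnajc8 217 (235) in replicate 5, and Hsp90aa1 read 271 (313) in replicate 1.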

How the results depend on the processing

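No called value of a named member changed direction under the alternatives run. The count of WT members by the cosine fit, 10, was 24 with the F test over 4 ZTs. For ZT9 against ZT21 in KO, 18 members became 8 with median-of-ratios scaling. For KO minus PBS, 6 became 13 with array weights. The cause of these shifts was not tested.

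Replicate numbers share only a number (median correlation of deviations -0.01058 in WT), and with them as a block the PBS cosine calls fell from 8 to 3 members and from 6 to 2 heat-inducible targets.

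Leaving out single libraries gave, for cosine calls of members, 8 to 16 in WT (16 without WT ZT3 replicate 3), 10 to 15 in KO and 1 to 8 in PBS (1 without PBS ZT15 replicate 2). For heat-inducible targets the cosine counts were 6 to 9 in WT, 6 to 9 in KO and 1 to 6 in PBS, the 1 again without PBS ZT15 replicate 2. For ZT9 against ZT21 the counts were 13 to 17 in WT, 10 to 20 in KO (10 without KO ZT9 replicate 2) and 0 to 5 in PBS (0 without PBS ZT21 replicate 1). The counts were 28 to 34 for KO minus WT, 31 to 38 for WT minus PBS, 5 to 8 for KO minus PBS, 10 to 17 for the interaction with genotype and 6 to 13 for that with treatment (13 without PBS ZT15 replicate 3).

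Dnajb1 lost its WT cosine call in 17 of 29 settings (unadjusted p up to 0.109), and Hsph1 lost it without WT ZT9 replicate 1, 3 or 5 (unadjusted p up to 0.0572). Under median-of-ratios scaling Hspa5 lost its cosine call in KO (unadjusted p rising to 0.0557) and its genotype by time call (unadjusted p rising to 0.142). Whether depth affects low members such as Dnajb13 was not tested.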
